A study of Mus musculus with 19 samples.

Results

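The genes examined were those of cholesterol and fatty acid synthesis. They formed a list of 36 genes, taken wherever a probe set of the array named only that gene, and 35 of the 36 were measured, on 39 of the 21789 probe sets with a single gene symbol. Where a gene had more than 1 probe set the mean was used, which gave 19938 genes in all, of which the 35 are a small part. By role, 6 measured genes belonged to the mevalonate branch, 12 to the making of squalene and its closure into sterol rings, 5 to sterol sensing and transport, 3 to the supply of acetyl-CoA and NADPH, and 9 to the synthesis, elongation and desaturation of fatty acids. Acat2 was not analysed here.

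Cells build cholesterol in the endoplasmic reticulum from acetyl-CoA, through mevalonate, isoprene units and squalene, and fatty acids in the cytosol from the same acetyl-CoA. The SREBP transcription factors, encoded by Srebf1 and Srebf2, drive most of these genes when sterol in the membrane is low: Scap escorts them to the Golgi for cleavage, and Insig proteins hold them back when sterol is plentiful. High endothelial cells (HEC) line the venules where lymphocytes leave the blood for lymphoid tissue, and are tall cells with a large Golgi that secrete heavily glycosylated ligands for L-selectin.

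RNA of endothelial cells sorted from BALB/c mice, an inbred strain, was hybridised to 19 Affymetrix expression arrays, and every sample pooled equal numbers of male and female adults of 6 to 8 weeks. For HEC there were 4 arrays from peripheral lymph nodes, 4 from mesenteric lymph nodes and 3 from Peyer's patches, which are lymphoid tissue in the wall of the gut. Capillary endothelial cells of these tissues had 3, 2 and 3 arrays. Among mesenteric HEC, arrays 1 and 2 were sorted as MAdCAM1+/PNAd+ and arrays 3 and 4 as MAdCAM1+; MAdCAM1 is the mucosal addressin and PNAd the L-selectin ligand epitope. No genetic change or treatment was named for any group, and the gates of the other sorts are not given in the sources used here. Whether the replicates of a group stem from different mice or sorts is not in the labels. The p-values therefore reflect the spread among these arrays alone, and that spread may be technical.

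The deposited log2 signals are relative to a baseline of each probe set that is not stated. They show how a gene differs between arrays, and neither its absolute level nor whether it was detected, nor the level of 1 gene against another. In these bulk sorts, fewer cells of a type and less RNA per cell cannot be told apart. The mean of 6 HEC markers ran from 3.64 to 4.34 on the HEC arrays and from -0.93 to 1.32 on the capillary arrays, and the mean of 6 capillary markers from -0.57 to 0.20 and from 3.36 to 4.44. On peripheral capillary arrays 1 and 2 the HEC markers averaged 1.32 and 1.08, against 0.13 on array 3, so those 2 arrays stood apart. Array 2 was also the highest of these for pericyte and smooth muscle markers (1.13, against 0.46 and 0.39) and myeloid markers (0.72, against 0.23 and -0.03). The same held for reticular fibroblast markers (0.49, against 0.05 and 0.06) and lymphatic endothelial markers (1.00, against 0.50 and 0.26). For pan-endothelial and intestinal epithelial markers array 2 was not the highest. Peyer's patch HEC arrays 2 and 3 differed from each other with an SD of 0.45 over all genes, against 0.196 to 0.312 for every other pair of replicates.

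Promoters of 6 members, picked for a motif or for a large difference, are printed to show which classical control sequences lie there. Each is the RefSeq window (assembly GRCm38.p6) from 250 bases before to 50 bases after the annotated start, 5′ to 3′ on the gene's strand. Capitals mark, on either strand, TCACNCCAC (a form of the sterol regulatory element bound by SREBPs), CCAAT (bound by NF-Y), GGGCGG (the GC box bound by Sp1) and CACGTG (an E-box). Hmgcs1 holds the sole TCACNCCAC among the members' windows searched, Idi1, Msmo1 and Sc5d are sterol genes with large differences, and Elovl6 and Fads2 are the fatty acid genes with the largest.
Hmgcs1, chr13:119690101-119690400 (+): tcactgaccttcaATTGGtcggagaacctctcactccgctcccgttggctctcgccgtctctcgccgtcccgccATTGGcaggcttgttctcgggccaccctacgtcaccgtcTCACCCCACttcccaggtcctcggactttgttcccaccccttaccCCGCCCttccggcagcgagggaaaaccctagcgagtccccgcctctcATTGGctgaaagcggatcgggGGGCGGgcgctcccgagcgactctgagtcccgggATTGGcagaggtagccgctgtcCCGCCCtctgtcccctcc
Idi1, chr13:8885356-8885655 (+): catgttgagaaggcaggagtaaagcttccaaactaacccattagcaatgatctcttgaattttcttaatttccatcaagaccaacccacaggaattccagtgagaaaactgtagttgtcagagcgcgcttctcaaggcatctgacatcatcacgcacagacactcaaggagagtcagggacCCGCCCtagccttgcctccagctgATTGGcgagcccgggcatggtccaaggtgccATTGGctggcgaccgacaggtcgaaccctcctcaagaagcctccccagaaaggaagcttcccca
Msmo1, chr8:64733529-64733828 (-): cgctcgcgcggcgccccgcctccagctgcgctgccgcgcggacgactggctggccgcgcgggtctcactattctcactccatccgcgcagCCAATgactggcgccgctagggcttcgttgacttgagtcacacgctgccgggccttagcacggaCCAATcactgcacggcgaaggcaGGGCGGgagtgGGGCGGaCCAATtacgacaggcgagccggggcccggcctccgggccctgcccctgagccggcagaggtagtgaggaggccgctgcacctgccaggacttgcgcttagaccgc
Sc5d, chr9:42264251-42264550 (-): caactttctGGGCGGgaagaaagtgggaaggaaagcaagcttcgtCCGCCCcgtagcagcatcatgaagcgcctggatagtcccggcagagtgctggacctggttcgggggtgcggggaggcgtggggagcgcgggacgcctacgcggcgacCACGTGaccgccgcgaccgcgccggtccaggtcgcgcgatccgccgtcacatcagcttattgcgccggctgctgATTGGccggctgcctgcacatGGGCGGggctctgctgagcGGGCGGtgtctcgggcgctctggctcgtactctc
Elovl6, chr3:129532136-129532435 (+): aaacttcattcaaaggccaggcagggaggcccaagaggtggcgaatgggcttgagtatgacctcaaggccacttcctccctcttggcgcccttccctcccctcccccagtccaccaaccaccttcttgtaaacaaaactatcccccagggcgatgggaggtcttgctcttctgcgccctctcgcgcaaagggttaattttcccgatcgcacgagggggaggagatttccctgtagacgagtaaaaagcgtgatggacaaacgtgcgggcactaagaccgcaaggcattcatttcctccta
Fads2, chr19:10101454-10101753 (-): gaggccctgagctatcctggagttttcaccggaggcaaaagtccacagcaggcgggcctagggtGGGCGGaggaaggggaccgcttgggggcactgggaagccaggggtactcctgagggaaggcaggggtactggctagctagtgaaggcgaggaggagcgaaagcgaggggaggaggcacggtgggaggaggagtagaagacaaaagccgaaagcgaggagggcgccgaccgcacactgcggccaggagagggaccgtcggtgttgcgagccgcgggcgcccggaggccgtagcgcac

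Windows were found for 29 of the 36 members, 37 windows in all, since some genes have more than 1 start. Sqle, Fdps, Fdft1, Stard4, Scd1, Scd2 and Fads1 had none. CCAAT stood in 25 of the 37 windows (67.6%), against 37.4% of all 32851 windows. GGGCGG stood in 28 (75.7%, against 35.7%), and CACGTG in 7 (18.9%, against 7.15%). Among windows of the genes measured here the shares were 37.4%, 49.2% and 8.24%. TCACNCCAC stood in 1 window, that of Hmgcs1 (1.24% of all windows), and its core CACNCCAC in 3 (6.24% of all). Hmgcs1 carried 4 CCAAT and 3 GGGCGG matches, Msmo1 3 and 2, Idi1 2 and 1, and Sc5d 1 and 4 with 1 CACGTG. Cyp51, a sterol gene with a large difference whose window is not printed, carried 1 and 1. The Elovl6 window held no match and that of Fads2 1 GGGCGG, which says only that the other letters are not in these windows. A match is a description of the letters, not of a site in use.

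**Figure D1:**
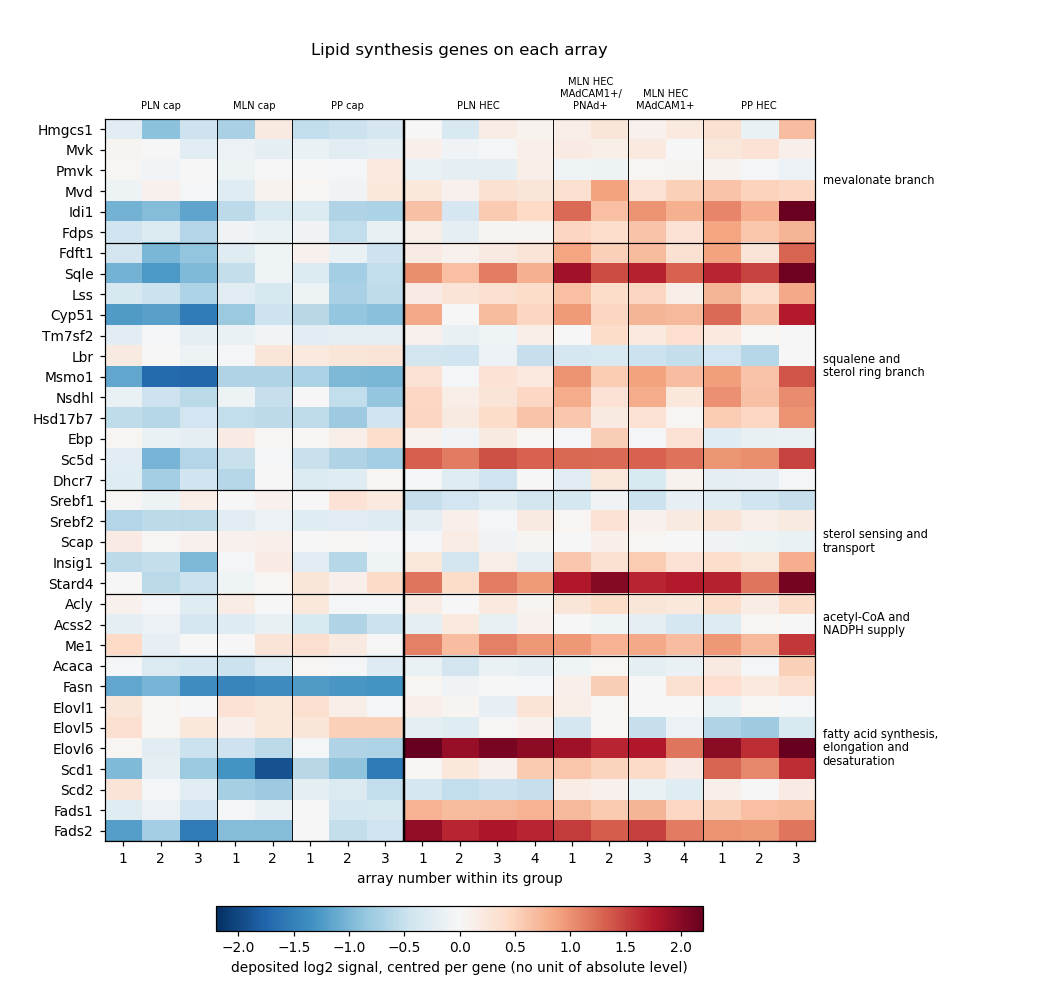
Deposited log2 signal, centred per gene, of the 35 members (rows, by role) on each of the 19 arrays (columns, by group, with the array number within its group; PLN, peripheral node; MLN, mesenteric node; PP, Peyer's patch; cap, capillary; red is higher and blue lower than the gene's own baseline). Sqle, Sc5d, Elovl6 and Fads2 are red on all 11 HEC arrays and blue or near white on the 8 capillary arrays, while Lbr, Srebf1 and Elovl5 run the other way.

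The comparison of HEC with capillary cells asked which lipid genes set these vessel types apart. Most members were higher in HEC: over the mean of the 3 tissues 26 of the 35 were higher, 3 were lower and 6 did not pass the threshold (limma, Benjamini-Hochberg adjusted p under 0.05), whereas 33.9% of all 19938 genes were called, 18.0% higher and 15.9% lower. The median difference of the members was 0.61 on the log2 scale, against -0.01 over all genes. For 13 members (Sqle, Lss, Cyp51, Msmo1, Nsdhl, Hsd17b7, Sc5d, Me1, Fasn, Elovl6, Scd1, Fads1 and Fads2) every HEC array lay above every capillary array, which held for 4.36% of all genes; for 0 members did every HEC array lie below, against 4.45%. Differences of over 1.0 came from every role but supply: Idi1, then Sqle, Cyp51, Msmo1, Hsd17b7 and Sc5d, then Stard4, and Fasn, Elovl6, Scd1 and Fads2. The 3 members lower in HEC were Lbr, Srebf1 and Elovl5.

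In the mevalonate branch 5 of 6 members were higher in HEC and Pmvk was not past the threshold. Idi1, the isomerase that readies isoprene units for joining, ran from -0.37 to 2.17 (median 0.78) on the 11 HEC arrays and from -1.16 to -0.30 (median -0.67) on the 8 capillary arrays. The ranges of Idi1 met only through peripheral HEC array 2, at -0.37, and the difference was 1.55 (SE 0.17, 2.92-fold, adjusted p = 1.01e-06). Its 2 probe sets gave 1.55 and 1.54. Fdps, which makes farnesyl diphosphate, was higher by 0.68 (SE 0.08, adjusted p = 1.24e-06), and Hmgcs1, the first enzyme committed to the pathway, by 0.57 (SE 0.13, adjusted p = 0.00239) with overlapping arrays. Mvk, mevalonate kinase, and Mvd, the decarboxylase that follows, were higher by 0.27 (SE 0.06) and 0.44 (SE 0.08). For Pmvk, phosphomevalonate kinase, the difference was -0.04, with a 95% interval of -0.16 to 0.08.

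Of 12 members that make squalene and close and trim the sterol ring, 9 were higher in HEC, Lbr was lower, and Ebp and Dhcr7 did not pass. Sqle, squalene epoxidase, a rate-limiting step, ran from 0.67 to 2.14 (median 1.44) in HEC and from -1.26 to -0.10 (median -0.65) in capillary cells. It was higher in HEC by 2.06 (SE 0.11, 4.16-fold, adjusted p = 6.02e-11). Fdft1, squalene synthase, just upstream, was higher by 0.91 (SE 0.12), with 1.01 and 0.80 on its 2 probe sets, and Lss, which folds the epoxide into lanosterol, by 0.88 (SE 0.09).

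The enzymes that strip methyl groups from lanosterol were all higher in HEC. Cyp51, the lanosterol demethylase, ran from 0.00 to 1.74 (median 0.71) on HEC arrays and from -1.53 to -0.46 (median -0.89) on capillary arrays, a difference of 1.73 (SE 0.14, 3.31-fold, adjusted p = 1.70e-08). Msmo1, the methylsterol oxidase, ran from -0.02 to 1.38 (median 0.63) and from -1.73 to -0.66 (median -0.99), a difference of 1.68 (SE 0.11, 3.20-fold, adjusted p = 8.56e-10). Nsdhl and Hsd17b7, which complete the removal of the same methyl groups, were higher by 0.98 (SE 0.12) and 1.03 (SE 0.09).

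The last steps of the ring were less alike. Sc5d, the sterol desaturase, varied little among HEC arrays, from 0.97 to 1.49 (median 1.27), and ran from -1.03 to -0.04 (median -0.57) on capillary arrays. Its difference was 1.75 (SE 0.10, 3.36-fold, adjusted p = 2.40e-10). Ebp, the sterol isomerase, gave -0.04 (95% interval -0.21 to 0.13) and Dhcr7, the reductase that yields cholesterol, 0.19 (-0.04 to 0.41). Tm7sf2 and Lbr both reduce the same sterol double bond, and Lbr also anchors the nuclear lamina. Tm7sf2 was higher by 0.27 (SE 0.06, adjusted p = 0.00286), while Lbr was lower, at -0.51 (SE 0.08, adjusted p = 6.46e-05), with -0.63 to 0.00 in HEC and -0.12 to 0.29 in capillary cells.

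Among the genes that sense and move sterol, 3 of 5 were higher in HEC. Stard4, a soluble carrier of cholesterol between membranes, ran from 0.40 to 2.10 (median 1.67) in HEC and from -0.59 to 0.42 (median 0.02) in capillary cells. The ranges of Stard4 overlapped by peripheral HEC array 2 alone, at 0.40, and the difference was 1.49 (SE 0.13, 2.82-fold, adjusted p = 3.96e-08). Insig1 was higher by 0.61 (SE 0.11, adjusted p = 0.000261) and Srebf2, the sterol-directed SREBP gene, by 0.48 (SE 0.06, adjusted p = 3.79e-06). Srebf1, whose product favours fatty acid genes, was lower: it ran from -0.51 to -0.07 in HEC and from -0.11 to 0.32 in capillary cells, a difference of -0.44 (SE 0.07, adjusted p = 4.65e-05). Scap gave -0.08 (95% interval -0.18 to 0.02).

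All 3 genes that supply the pathway were past the threshold, by smaller amounts. Me1, malic enzyme, a source of NADPH, ran from 0.68 to 1.56 in HEC and from -0.18 to 0.44 in capillary cells, a difference of 0.81 (SE 0.11, adjusted p = 1.45e-05; 0.87 and 0.76 on its 2 probe sets). Acly, which splits citrate into acetyl-CoA, was higher by 0.22 (SE 0.06, adjusted p = 0.00969). Acss2, which makes acetyl-CoA from acetate, was higher by 0.23 (SE 0.07, adjusted p = 0.0216). The Acss2 call was lost without mesenteric capillary array 1 (0.21, adjusted p = 0.0752) and without Peyer's patch capillary array 2 (0.20, adjusted p = 0.0519), as well as without Peyer's patch HEC arrays 2 and 3 (0.16, adjusted p = 0.162).

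Of 9 members that build and modify fatty acids, 6 were higher in HEC, Elovl5 was lower, and Acaca and Elovl1 did not pass. Fasn, fatty acid synthase, was tight within each cell type, from -0.08 to 0.54 in HEC and from -1.45 to -1.03 in capillary cells. It was higher by 1.47 (SE 0.07, 2.78-fold, adjusted p = 1.05e-11). Acaca, the carboxylase that feeds it, gave 0.20 (95% interval 0.04 to 0.37, adjusted p = 0.0548). The difference between these genes in size of effect was not tested.

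Elongases moved in both directions. Elovl6, which lengthens palmitate, gave the largest difference of all members, though with quantile normalization repeated Fads2 was larger (2.33 against 2.17). It ran from 1.17 to 2.31 (median 1.92) in HEC and from -0.68 to 0.04 (median -0.46) in capillary cells, a difference of 2.28 (SE 0.12, 4.87-fold, adjusted p = 5.37e-11). Elovl5, which lengthens polyunsaturated chains, was lower by -0.58 (SE 0.09, adjusted p = 3.70e-05), with -0.79 to 0.10 in HEC and 0.04 to 0.53 in capillary cells. Elovl1, for very long saturated chains, gave -0.15 (95% interval -0.29 to 0.00).

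Desaturases were higher in HEC. Fads2, the first desaturase of polyunsaturated fatty acids, ran from 0.96 to 1.95 (median 1.5) and from -1.54 to 0.00 (median -0.85), a difference of 2.21 (SE 0.10, 4.63-fold, adjusted p = 9.06e-12). Fads1, which acts after it, was higher by 0.87 (SE 0.07, adjusted p = 7.83e-09), with 0.46 to 0.77 on all HEC arrays. Scd1, which makes oleate from stearate, ran from 0.05 to 1.62 (median 0.49) and from -1.91 to -0.19 (median -0.92), a difference of 1.76 (SE 0.14, 3.38-fold, adjusted p = 1.67e-08). Scd2, of the same activity, was higher by only 0.23 (SE 0.07, adjusted p = 0.0106), as the mean of tissues in which its sign differed.

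**Figure D2:**
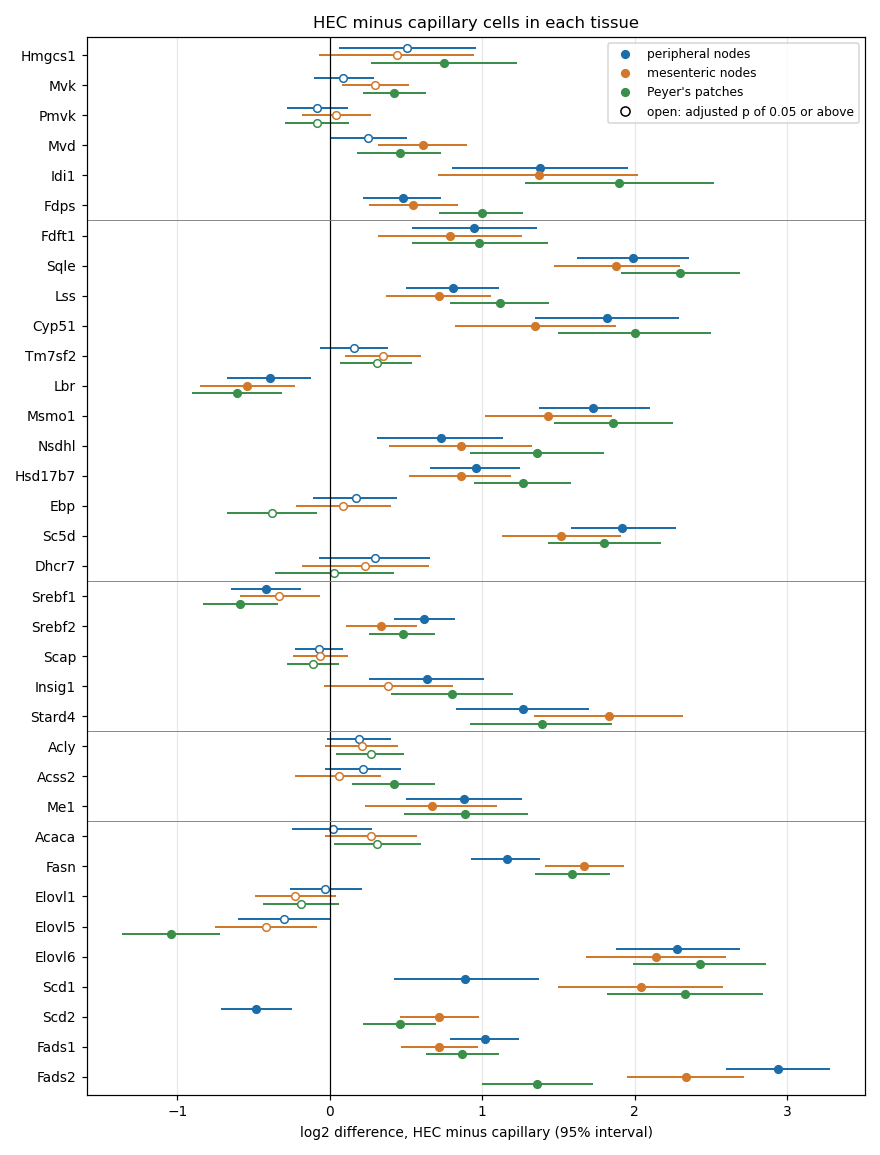
Difference between HEC and capillary cells for each of the 35 members (rows, by role) by tissue (colours: peripheral node, mesenteric node, Peyer's patch), on the log2 scale with its 95% interval (lines); filled points have a limma adjusted p under 0.05 and open points do not. Points for Sqle, Msmo1, Sc5d, Fasn and Elovl6 lie to the right of 0 in all 3 tissues, Fads2 is largest in peripheral nodes (2.94), and Scd2 lies left of 0 in peripheral nodes only (-0.48).

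The same contrast was then read within each tissue. In peripheral nodes 19 members were higher in HEC and 3 lower, where 24.6% of all genes were called, 13.1% higher and 11.4% lower. The mesenteric contrast gave 20 higher and 1 lower (15.2% of all genes, 7.87% higher and 7.31% lower). For Peyer's patches 24 were higher and 3 lower (19.5% of all genes, 8.90% higher and 10.6% lower). Median differences of the members were 0.62, 0.61 and 0.80, against -0.05, -0.01 and 0.03 over all genes. Of the 12 squalene and ring genes 8 were higher and 1 lower in each tissue, while of the 6 mevalonate genes 2, 3 and 5 were higher.

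Sqle was higher in HEC by 1.99 (SE 0.17) in peripheral nodes, by 1.88 (SE 0.20) in the mesenteric and by 2.30 (SE 0.19) in Peyer's patches. Elovl6 gave 2.28 (SE 0.19), 2.14 (SE 0.22) and 2.43 (SE 0.20). The interactions with tissue did not pass for these 2 genes: for Peyer's patches against peripheral nodes Sqle gave 0.31 (95% interval -0.22 to 0.85) and Elovl6 0.14 (-0.45 to 0.73). Fasn was higher by 1.16 (SE 0.11), 1.67 (SE 0.12) and 1.59 (SE 0.12), and Stard4 by 1.27 (SE 0.21), 1.83 (SE 0.23) and 1.39 (SE 0.22). Hmgcs1, at the head of the pathway, gave 0.51 (adjusted p = 0.0910), 0.44 (adjusted p = 0.302) and 0.75 (adjusted p = 0.0252). The Hmgcs1 call in Peyer's patches was lost without capillary array 1 or 2 or HEC array 1 or 3, with values of 0.56 to 0.75 and adjusted p of 0.0720 to 0.102.

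HEC of the different tissues were compared to ask whether gut-associated HEC and peripheral HEC make lipids alike. Several members were higher in Peyer's patch than in peripheral HEC: 8 were higher (Idi1, Fdps, Sqle, Msmo1, Stard4, Acaca, Scd1 and Scd2) and 2 lower (Elovl5 and Fads2), where 6.65% of all genes were called, 2.16% higher and 4.49% lower. The median of the members was 0.21, against 0.03 over all genes. Mesenteric HEC differed from peripheral HEC in 3 members, all higher (Sqle, Stard4 and Scd2; 2.69% of all genes called, 0.722% higher and 1.97% lower). Between Peyer's patch and mesenteric HEC limma called 0 members (1.20% of all genes), with 7 at an unadjusted p under 0.05, and 1 member without peripheral capillary array 2 or Peyer's patch capillary array 3. With array quality weights it called 6, a setting for which the share of all genes is not given here. These comparisons share arrays with each other.

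Sqle read 1.03, 0.67, 1.12 and 0.79 on the peripheral HEC arrays, 1.84, 1.44, 1.70 and 1.3 on the mesenteric and 1.68, 1.49 and 2.14 on the Peyer's patch HEC arrays. Every gut HEC array was above every peripheral HEC array. The differences from peripheral HEC were 0.87 (SE 0.17, adjusted p = 0.00466) for Peyer's patches and 0.67 (SE 0.16, adjusted p = 0.0314) for mesenteric nodes. The mesenteric call of Sqle was lost without mesenteric HEC array 1 or 3 or peripheral HEC array 2 or 4 (0.57 to 0.63, adjusted p of 0.0949 to 0.138).

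Fdps, the farnesyl diphosphate synthase, read 0.13, -0.19, 0.06 and 0.06 in peripheral HEC and 0.86, 0.61 and 0.74 in Peyer's patch HEC, with 0.47, 0.38, 0.62 and 0.31 in mesenteric HEC. Peripheral HEC lay below both gut groups, while the highest mesenteric array, at 0.62, lay above Peyer's patch array 2, at 0.61. Peyer's patches were higher than peripheral nodes by 0.72 (SE 0.12, adjusted p = 0.00114); mesenteric nodes gave 0.43 (adjusted p = 0.0517). Msmo1 read 0.31, -0.02, 0.32 and 0.22 in peripheral HEC and 0.92, 0.63 and 1.38 in Peyer's patch HEC, a difference of 0.77 (SE 0.17, adjusted p = 0.0109). Idi1 read 0.65, -0.37, 0.58 and 0.43 in peripheral and 1.08, 0.80 and 2.17 in Peyer's patch HEC. Peripheral HEC array 2 was the lowest of its group for Fdps, Msmo1 and Idi1, and Peyer's patch HEC array 3 the highest for Msmo1 and Idi1. The Idi1 difference was 1.02 (SE 0.27, adjusted p = 0.0337), and was not past the threshold without peripheral HEC array 2 or 4 or Peyer's patch HEC array 1 or 3 (0.61 to 1.16, adjusted p of 0.0557 to 0.0825).

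Stard4, the sterol carrier, read 1.17, 0.40, 1.13 and 0.94 in peripheral HEC, 1.77, 2.02, 1.67 and 1.74 in mesenteric HEC and 1.69, 1.17 and 2.10 in Peyer's patch HEC. All mesenteric arrays lay above all peripheral arrays, and Peyer's patch array 2 met the highest peripheral array at 1.17. Mesenteric HEC were higher by 0.89 (SE 0.19, adjusted p = 0.0140), a call lost without mesenteric HEC array 2 or 4 (0.83 and 0.88, adjusted p of 0.0776 and 0.0585). Peyer's patch HEC were higher by 0.75 (SE 0.21, adjusted p = 0.0381), a call lost without peripheral HEC array 2 or 4 or Peyer's patch HEC array 1 or 3 (0.52 to 0.76, adjusted p of 0.0684 to 0.127).

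Acaca, the carboxylase, was higher in Peyer's patch than in peripheral HEC by 0.45 (SE 0.13, adjusted p = 0.0398), on arrays of 0.19, -0.02 and 0.52 against -0.14, -0.40, -0.15 and -0.22. Its call was lost without any peripheral HEC array, without Peyer's patch HEC array 1 or 3, without Peyer's patch capillary array 2, and without mesenteric HEC array 3 or 4 (0.31 to 0.48, adjusted p of 0.0504 to 0.101). With the more variable of its 2 probe sets in place of their mean, the call was also lost (0.40, SE 0.17, limma adjusted p = 0.161). Several sterol genes that were called in HEC against capillary cells gave positive values here without passing: Cyp51 0.71 (adjusted p = 0.0666), Fdft1 0.63 (adjusted p = 0.0651), Nsdhl 0.56 (adjusted p = 0.0975) and Insig1 0.53 (adjusted p = 0.0835). Sc5d, by contrast, gave -0.12 with a 95% interval of -0.47 to 0.22.

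The count of 10 members for Peyer's patch against peripheral HEC depended on which arrays entered. It was 6 without peripheral HEC array 4 and 5 without Peyer's patch HEC array 1. With array quality weights it was 20. Without both Peyer's patch HEC arrays 2 and 3 it was 1 (Fdps, 0.84, adjusted p = 0.0206), with a single array left in the group and assumed to vary like the others. The count of 3 for mesenteric against peripheral HEC fell to 1 without any single mesenteric HEC array, or without peripheral HEC array 2 or 4, and was 5 without Peyer's patch HEC array 2 and with array quality weights. Some of these calls also ended under other settings. Idi1, Stard4 and Acaca were not past the threshold for Peyer's patches with arrays centred on their median (adjusted p of 0.0506, 0.0545 and 0.0666), nor was Sqle for mesenteric nodes (adjusted p = 0.0576). In a fit of Peyer's patch and peripheral HEC alone, Idi1, Stard4, Acaca and Elovl5 were not past it (adjusted p of 0.136, 0.129, 0.118 and 0.0823). Shares of all genes called under these alternatives are not given here, so a shift in count need not be particular to the members.

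**Figure D3:**
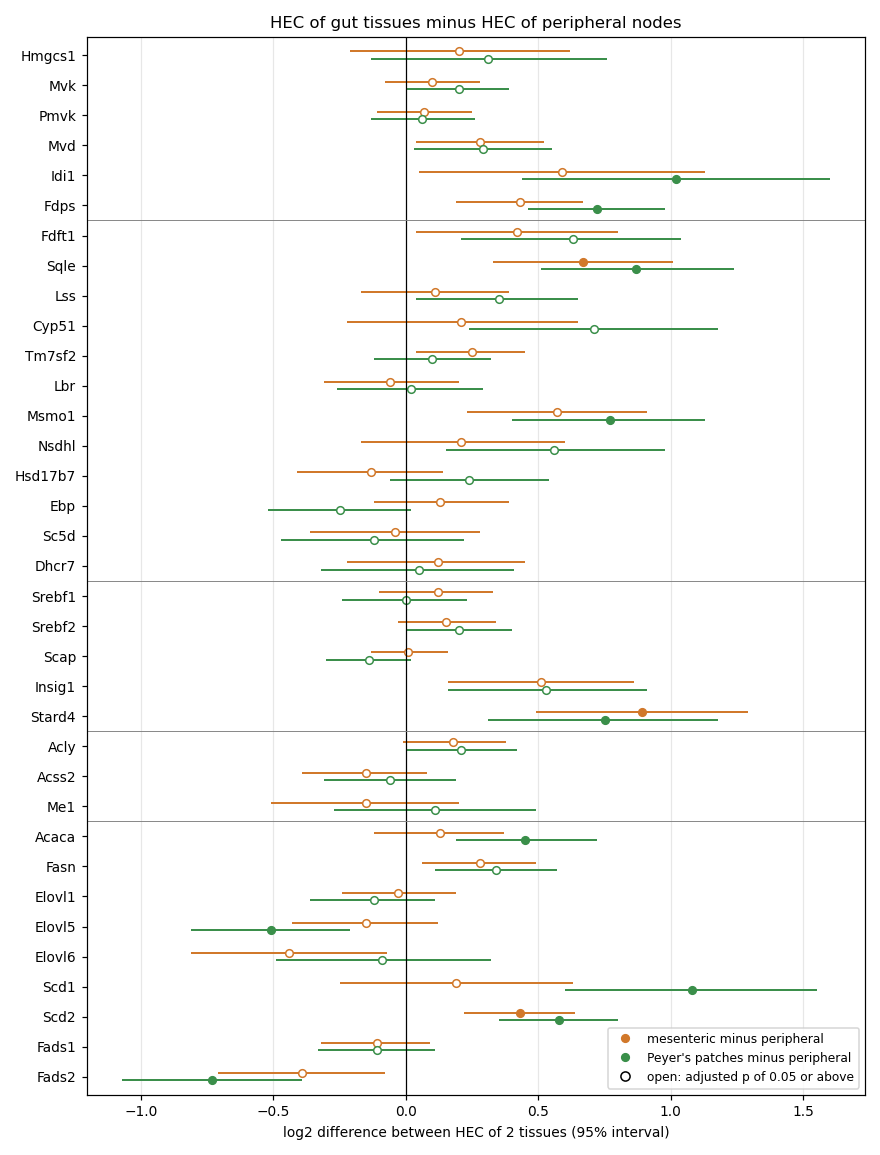
Difference of mesenteric HEC and of Peyer's patch HEC from peripheral node HEC for each of the 35 members (rows, by role), on the log2 scale with its 95% interval (lines); filled points have a limma adjusted p under 0.05. Both sets of points use the same 4 peripheral HEC arrays; Sqle, Stard4 and Scd2 are filled to the right in both, and Fads2 and Elovl5 are filled to the left for Peyer's patches (-0.73 and -0.51).

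The members whose difference between HEC and capillary cells differed by tissue past the threshold were the desaturase genes Scd1, Scd2 and Fads2. Fads1, also a desaturase, was not called. In the interaction of Peyer's patches with peripheral nodes (limma), Scd1 and Scd2 were higher and Fads2 lower, with 9 members at an unadjusted p under 0.05. Of all genes 4.05% were called in it, 1.69% higher and 2.37% lower. In that of mesenteric with peripheral nodes Scd2 alone was called, as higher (0.416% of all genes, 0.145% higher and 0.271% lower), with 4 members at an unadjusted p under 0.05. In that of Peyer's patches with mesenteric nodes limma called 0 members (0.752% of all genes), with 4 at an unadjusted p under 0.05, and 1 without peripheral capillary array 2. Elovl5 gave an interaction of -0.74 (SE 0.21) for Peyer's patches against peripheral nodes that did not pass (adjusted p = 0.0555).

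Scd1 read 0.05, 0.24, 0.10 and 0.57 in peripheral HEC, 0.61, 0.49, 0.42 and 0.18 in mesenteric HEC, and 1.28, 1.05 and 1.62 in Peyer's patch HEC. Capillary arrays read -0.97, -0.19 and -0.81 for peripheral nodes, -1.31 and -1.91 for mesenteric nodes and -0.61, -0.88 and -1.55 for Peyer's patches. Peyer's patch HEC thus lay above all other arrays, with no overlap. They were higher than peripheral HEC by 1.08 (SE 0.23, adjusted p = 0.00676). HEC exceeded capillary cells by 0.89 (SE 0.23) in peripheral nodes and by 2.33 (SE 0.24) in Peyer's patches, and the interaction was 1.44 (SE 0.33, adjusted p = 0.0188). That interaction was 1.21 (adjusted p = 0.0584) without peripheral capillary array 2, 1.28 (adjusted p = 0.124) without peripheral capillary arrays 1 and 2, and 1.4 (adjusted p = 0.0766) without Peyer's patch HEC arrays 2 and 3.

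Scd2, its paralog, was the member whose sign turned. It read -0.37, -0.54, -0.47 and -0.50 in peripheral HEC, below the peripheral capillary arrays at 0.28, -0.02 and -0.23. Mesenteric HEC arrays read 0.16, 0.10, -0.14 and -0.27 and mesenteric capillary arrays -0.73 and -0.80. Those of Peyer's patches read 0.12, 0.01 and 0.18 for HEC and -0.21, -0.32 and -0.54 for capillary cells. No HEC group overlapped the capillary group of its tissue: HEC were lower in peripheral nodes and higher in both gut tissues. The differences were -0.48 (SE 0.11, adjusted p = 0.00334), 0.72 (SE 0.12, adjusted p = 0.000364) and 0.46 (SE 0.12, adjusted p = 0.00796), the last lost without Peyer's patch capillary array 3 (0.37, adjusted p = 0.0527). Interactions with peripheral nodes were 1.20 (SE 0.16, adjusted p = 0.00159) for mesenteric nodes and 0.94 (SE 0.16, adjusted p = 0.00179) for Peyer's patches. Peripheral capillary arrays 1 and 2, which carried more HEC marker signal, were also the higher of their group for Scd2: without them the peripheral difference was -0.24 (adjusted p = 0.271), and the interactions were 0.96 (adjusted p = 0.0288) and 0.70 (adjusted p = 0.0410).

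Within HEC, Scd2 was higher than in peripheral nodes by 0.58 (SE 0.11, adjusted p = 0.00285) in Peyer's patches and by 0.43 (SE 0.10, adjusted p = 0.0254) in mesenteric nodes. The mesenteric call was lost without any of the 4 mesenteric HEC arrays or peripheral HEC array 2, 3 or 4 (0.40 to 0.47, adjusted p of 0.0533 to 0.101).

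Fads2 was highest in peripheral HEC. It read 1.95, 1.67, 1.78 and 1.68 in peripheral HEC, 1.53, 1.33, 1.5 and 1.15 in mesenteric HEC and 0.99, 0.96 and 1.18 in Peyer's patch HEC. Capillary arrays of the same tissues read -1.21, -0.75 and -1.54, then -0.96 and -0.95, then 0.00, -0.52 and -0.44. The HEC groups did not overlap, except that mesenteric array 4, at 1.15, lay below Peyer's patch array 3, at 1.18; among capillary cells the Peyer's patch arrays lay above all others. The difference between HEC and capillary cells was 2.94 (SE 0.16) for peripheral nodes, 2.34 (SE 0.18) for the mesenteric and 1.36 (SE 0.17) for Peyer's patches, and the interaction of the first with the last was -1.57 (SE 0.23, adjusted p = 0.000667), or -1.95 without peripheral capillary arrays 1 and 2. Peyer's patch HEC were lower than peripheral HEC by -0.73 (SE 0.16, adjusted p = 0.00980), a call lost without Peyer's patch HEC array 1 or 2 (-0.70 and -0.68, adjusted p of 0.0525 and 0.0536) and after quantile normalization was repeated (-0.48, adjusted p = 0.233). Fads1, which follows it in the route, gave -0.11 for the same contrast of HEC (95% interval -0.33 to 0.11).

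Elovl5 read -0.21, -0.27, 0.02 and 0.10 in peripheral HEC and -0.67, -0.79 and -0.34 in Peyer's patch HEC. The groups did not overlap, and Peyer's patches were lower by -0.51 (SE 0.14, adjusted p = 0.0381). This call was lost without peripheral HEC array 3 or 4 or Peyer's patch HEC array 1 or 2 (-0.48 to -0.42, adjusted p of 0.0937 to 0.204), and after quantile normalization was repeated (-0.40, adjusted p = 0.105).

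**Figure D4:**
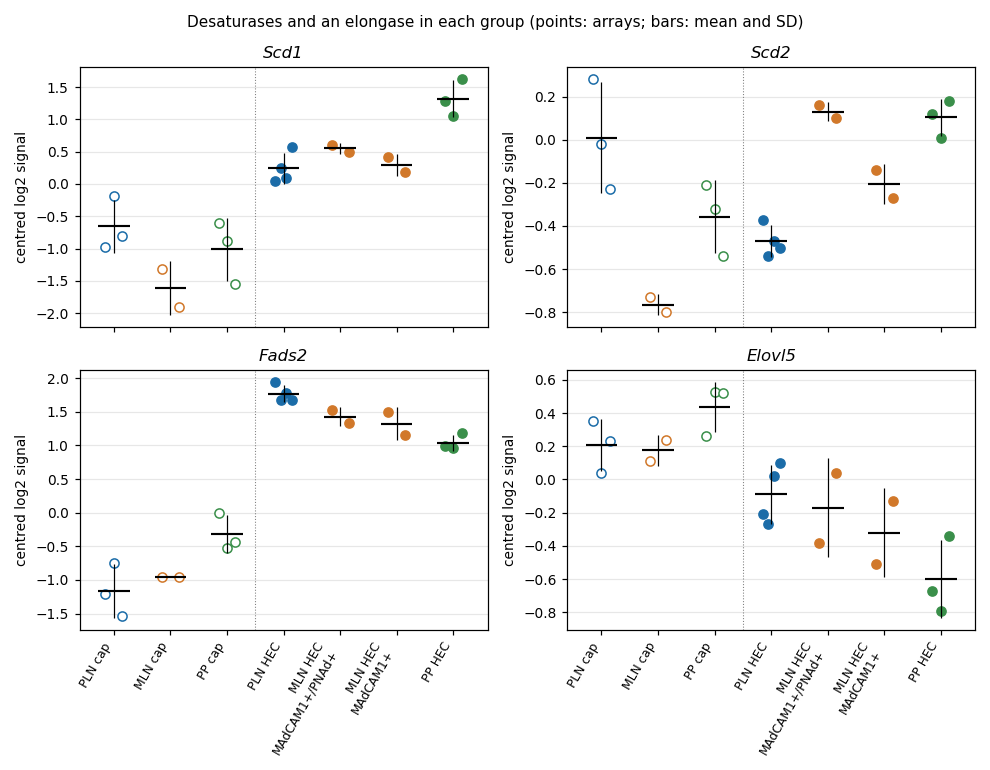
Centred log2 signal of Scd1, Scd2, Fads2 and Elovl5 on each array (points; open for capillary, filled for HEC) by group, with the group mean (long bar) and SD (thin line); the y axis differs between panels. Scd1 is highest in Peyer's patch HEC (1.05 to 1.62), Scd2 in peripheral HEC (-0.54 to -0.37) lies below peripheral capillary cells, and Fads2 is lower in Peyer's patch (0.96 to 1.18) than in peripheral HEC (1.67 to 1.95).

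The number of members called between capillary cells of the 3 tissues depended on the scaling, for which the share of all genes is not given here. It was 1 for Peyer's patches and 1 for mesenteric nodes against peripheral nodes and 0 between the gut tissues, and became 7, 4 and 1 after quantile normalization was repeated and 5, 2 and 1 with array quality weights. In a fit of those groups alone it was 0 for each gut tissue against peripheral nodes, with Fads2 at an adjusted p of 0.0862 and Scd2 at 0.392. Fads2 was higher in Peyer's patch than in peripheral capillary cells by 0.85 (SE 0.17, adjusted p = 0.00545), the sole member called of 35 (4.64% of all genes, 2.40% higher and 2.24% lower). Scd2 was lower in mesenteric than in peripheral capillary cells by -0.77 (SE 0.13, adjusted p = 0.0130), again the sole member (0.291% of all genes, 0.120% higher and 0.171% lower). That Scd2 call was lost without mesenteric capillary array 1 or 2 (-0.81 and -0.73, adjusted p of 0.122 and 0.190) and without peripheral capillary arrays 1 and 2 (-0.53, adjusted p = 0.687). The count for Peyer's patches against peripheral capillary cells was 2 without any 1 of peripheral capillary arrays 1 and 3, peripheral HEC array 1, or Peyer's patch HEC arrays 2 and 3. The count for mesenteric against peripheral capillary cells was 2 without peripheral capillary array 1 or Peyer's patch HEC array 3. Between Peyer's patch and mesenteric capillary cells limma called 0 members (1.86% of all genes), with 3 at an unadjusted p under 0.05, and 1 without peripheral capillary arrays 1 and 2. Msmo1, at -1.14, -1.71 and -1.73 in peripheral, -0.66 and -0.66 in mesenteric and -0.70, -0.98 and -1.0 in Peyer's patch capillary cells, gave 0.87 and 0.64 for the gut tissues against peripheral nodes without passing (adjusted p = 0.132 and 0.0632).

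The gates of mesenteric HEC, MAdCAM1+/PNAd+ against MAdCAM1+, did not differ in any member that passed. Limma called 0 members, with 1 at an unadjusted p under 0.05, where 0.0201% of all genes were called; 30 of 35 differences were positive, with a median of 0.10 against 0.01 over all genes. The member with the lowest p was Scd2, at 0.16 and 0.10 against -0.14 and -0.27, a difference of 0.33 (95% interval 0.03 to 0.63). Elovl6 gave 0.30 (-0.23 to 0.82) and Sqle 0.14 (-0.34 to 0.62). With 2 arrays a gate, these intervals remain wide. The fit did not pair arrays across gates, though 1 and 3, and 2 and 4, were the closest of these arrays. Sqle read 1.84 and 1.7 on arrays 1 and 3, and 1.44 and 1.3 on arrays 2 and 4. A fit paired in this way was not run. The comparisons of mesenteric HEC with other groups counted each of these arrays as separate. If the close pairs share a source, the SEs and p-values of those comparisons may be too small.

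Replicates varied together across the members, and in some other lists as well. Peripheral HEC array 2 was the lowest of its group for 25 of 35 members (29.2% of all genes), Peyer's patch HEC array 3 the highest for 24 (38.6% of all genes), and Peyer's patch HEC array 2 the lowest for 23 (37.9%). Among capillary cells, Peyer's patch array 1 was the highest for 21 (32.8%) and peripheral array 1 for 20 (36.4%). Peripheral capillary array 3 was the lowest for 19 (33.4%). The mean of the 18 mevalonate, squalene and ring members was 0.30, 0.03, 0.29 and 0.30 on the peripheral HEC arrays, 0.53, 0.46, 0.48 and 0.38 on the mesenteric and 0.59, 0.37 and 0.82 on the Peyer's patch HEC arrays. The mean of 19 cell cycle genes moved in the same order on HEC arrays that stood out: 0.06, -0.34, 0.02 and 0.06 in peripheral HEC and 0.35, -0.01 and 0.59 in Peyer's patch HEC. Of those 19 genes 1 was higher and 1 lower in HEC than in capillary cells (33.9% of all genes called). In Peyer's patch against peripheral HEC 2 were higher and 0 lower (6.65% of all genes called). The secretory pathway list also had these arrays low and high: 0.40, 0.33, 0.48 and 0.47 in peripheral HEC, and 0.24, 0.09 and 0.54 in Peyer's patch HEC. Fatty acid oxidation genes averaged 0.19, 0.04, 0.19 and 0.31, and -0.02, -0.22 and 0.24. B cell markers differed, with Peyer's patch HEC array 2 highest (0.18, 0.33 and 0.22). The part of these lists in the tissue differences was not tested.

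Some markers of other cells also moved with the contrast of HEC and capillary cells. In that contrast 33.9% of all genes were called, 18.0% higher and 15.9% lower. Of 9 B cell markers 7 were higher in HEC and 0 lower, with a list mean of 0.18 to 0.79 on HEC arrays and -0.14 to 0.14 on capillary arrays, and of 6 T cell markers 4 were higher (-0.05 to 0.56 against -0.21 to 0.11). Markers of pericytes and smooth muscle were for the most part lower, 9 of 10 with 1 higher (-0.92 to -0.46 against -0.12 to 1.13), of 7 adipocyte markers 3 were lower (-0.10 to 0.21 against 0.38 to 0.56), and of 10 pan-endothelial markers 7 were lower (-0.34 to 0.25 against 0.46 to 0.77). The adipocyte list includes Fabp4, which is also a capillary marker and itself lower in HEC, so its mean is not particular to adipocytes. Of 16 genes of the immediate-early and dissociation response 15 had lower values in HEC and passed (-0.78 to -0.14 against 0.26 to 0.72). Myeloid markers were higher for 1 and lower for 1 of 8, reticular fibroblast markers for 1 and 2 of 10, and lymphatic endothelial markers for 2 and 2 of 6. Intestinal epithelial markers were lower for 1 of 10 in that contrast. They were higher for 7 of 10 in Peyer's patch against peripheral HEC (6.65% of all genes called, 2.16% higher and 4.49% lower). The part of these lists in the lipid gene differences was not tested.

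**Figure D5:**
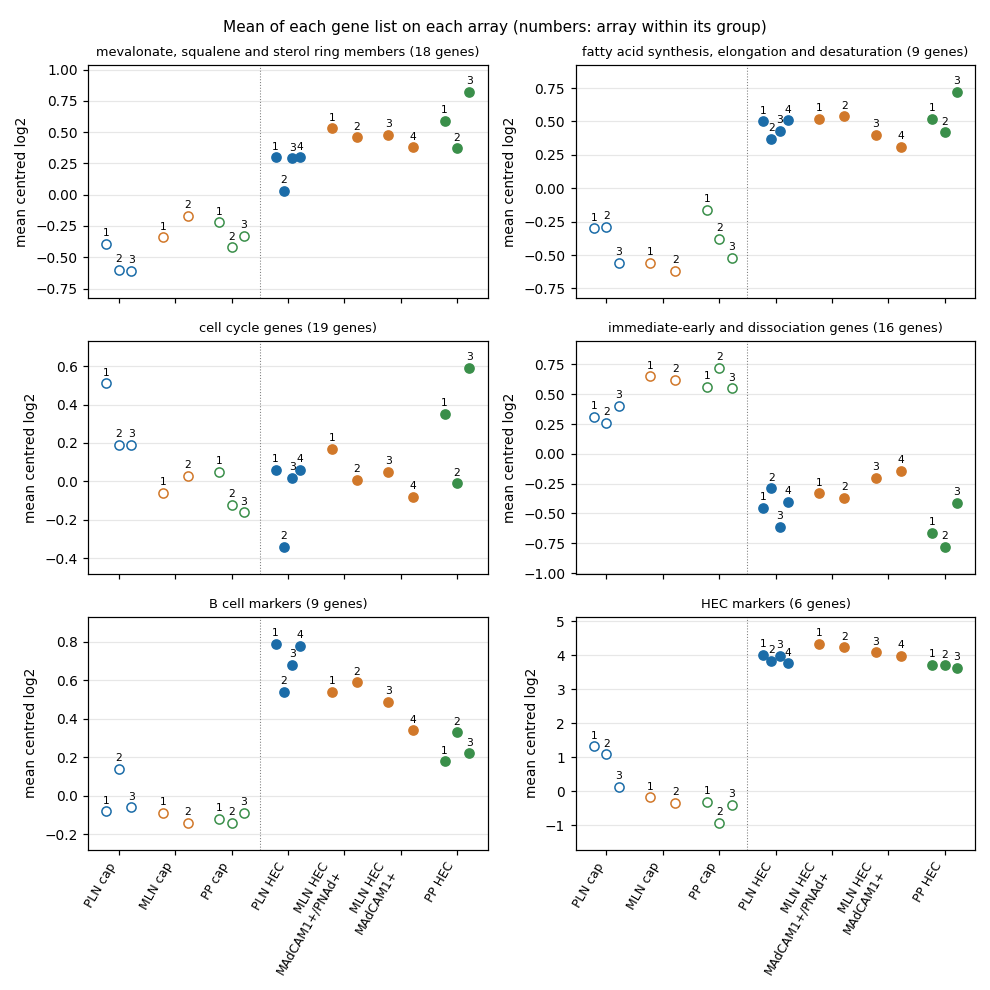
Mean centred log2 signal over the genes of 6 lists on each array (points, with the array number; open for capillary, filled for HEC) by group; the y axis differs between panels. The 18 sterol members and the 9 fatty acid members are higher on every HEC array than on every capillary array, and peripheral HEC array 2 and Peyer's patch HEC array 3 stand low and high in both the sterol and the cell cycle panels.

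Other genes of lipid metabolism give the setting of the synthesis genes in the mean of 3 tissues, in which 33.9% of all genes were called (18.0% higher and 15.9% lower). Of 12 other measured genes of sterol synthesis and sensing 5 were higher in HEC and 3 lower (median 0.17): Tmem97, which binds sterols, was higher by 1.0 (SE 0.11), Dhdds by 0.69 (SE 0.11) and Ggps1 by 0.50 (SE 0.13), both enzymes of the isoprenoid side branches, while Cyb5r3 was lower at -0.51 (SE 0.12). Of 23 other genes of fatty acid synthesis and chain modification 11 were higher and 2 lower (median 0.33). Among them were Cyb5b at 0.95 (SE 0.12), the mitochondrial citrate carrier Slc25a1 at 0.93 (SE 0.06), Mecr at 0.74 (SE 0.12) and the second acetyl-CoA carboxylase Acacb at 0.73 (SE 0.05). Other regulators of lipid synthesis were higher for 4 and lower for 1 of 13 (median 0.01), a share near that of all genes, with Sirt1 at -0.84 (SE 0.12), Ppard at 0.64 (SE 0.06), Mlxip at 0.33 (SE 0.08) and Ppargc1b at 0.18 (SE 0.05).

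Fatty acid uptake ran the other way: of 11 genes 7 were lower in HEC and 4 higher (median -1.22). The fatty acid transporter Cd36 was lower at -5.20 (SE 0.18), the lipase anchor Gpihbp1 at -3.80 (SE 0.10), the lipid chaperone Fabp4 at -2.37 (SE 0.11) and the nuclear receptor Pparg at -1.78 (SE 0.07). Cd36, Gpihbp1 and Fabp4 are also among the capillary markers used above. Of 18 genes of sterol efflux, oxysterol receptors and lipoprotein handling 5 were higher and 6 lower (median 0.00). The cholesterol hydroxylases Ch25h and Cyp27a1, which make oxysterols, were higher by 3.24 (SE 0.14) and 2.89 (SE 0.13), and the lipoprotein receptor Vldlr by 2.26 (SE 0.11). Genes of the secretory pathway were higher in HEC for 24 of 29 and lower for 2 (median 0.56), led by the retrieval receptor Kdelr3 at 1.95 (SE 0.14), Sec11c at 1.28 (SE 0.15), and the vesicle coat genes Sec23b and Sec24d at 1.06 (SE 0.12) and 1.05 (SE 0.06).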

How the data were processed

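The submitters' processing notes name RMA and Partek, without versions. The authors deposited log2 values centred per probe set, between -4.092 and 6.128, with an exact 0 in 54.47% of probe sets, so dim probes could not be filtered. Precision is limited by the number of arrays, 19.

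Groups came from the sample titles. Probe sets with 1 gene symbol in the platform annotation (21789 of 28856; 1621 had several, 5446 none) were averaged per gene, with symbols checked against GRCm38.p6. A mean for each of 7 groups was fitted with limma 3.58.1 (lmFit, eBayes; 12 residual degrees of freedom, prior 4.62) in R 4.3.3, with mesenteric HEC as the mean of both gates, and two-sided p-values adjusted by Benjamini-Hochberg over 19938 genes per comparison (threshold 0.05). The fit was tested on simulated data. All members could be named, and of each other list at most 4 called genes with the largest differences. Members and lists were chosen with earlier results of these data known. Some list members are not reported here. The labels name no batch. Alternatives tried are in the closing section. Figures used matplotlib 3.10.9.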

Additional observations from a re-analysis of the deposited data

Results flagged for a closer look

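Pmvk, phosphomevalonate kinase, read 0.15 on peripheral HEC array 4 and -0.14, -0.19 and -0.19 on the other 3 arrays, so array 4 stood apart by Dixon's test. There were 35 such tests, of which chance singles out about 1 in 20.

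The difference between HEC and capillary cells changed with the tissue for 3 members, by the test of the interaction (limma). Against peripheral nodes, Scd1 gave 1.44 and Scd2 0.94 in Peyer's patches, Scd2 gave 1.20 in mesenteric nodes, and Fads2 gave -1.57 in Peyer's patches. For Scd1 and Fads2 HEC were higher in every tissue and the size differed, while for Scd2 all peripheral HEC arrays lay below, and all gut HEC arrays above, the capillary arrays of their tissue.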

How the results depend on the processing

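Of 118 member calls over the 14 comparisons, 81 kept direction and call under every alternative run for them, 37 were lost under at least 1, and 0 reversed. Leaving out each array in turn gave counts of members of 28 to 31 for HEC against capillary cells (mean of tissues), 18 to 23 in peripheral nodes, 15 to 22 in mesenteric nodes and 24 to 29 in Peyer's patches. It gave 5 to 11 for Peyer's patch and 1 to 5 for mesenteric against peripheral HEC, 0 to 1 for Peyer's patch against mesenteric HEC, 1 to 2 and 0 to 2 for Peyer's patch and mesenteric against peripheral capillary cells, 2 to 4 for the first interaction, and 0 to 1 for that of Peyer's patches with mesenteric nodes. In the same order of comparisons, array quality weights (estimated gene by gene, as the REML estimate did not converge) gave 20, 5 and 6 for the HEC pairs, 5, 2 and 1 for the capillary pairs (the last Peyer's patch against mesenteric), and 7 and 2 for the interactions of Peyer's patches with peripheral and with mesenteric nodes. Repeated quantile normalization gave 7, 4 and 1 for the capillary pairs, median centring 2 for Peyer's patch against peripheral capillary cells, and a fit restricted to the groups compared 1 for Peyer's patch against mesenteric HEC and 0 and 0 for the 2 capillary pairs with peripheral nodes. A filter on range over arrays (above 0.708; 9969 genes, 29 members kept) gave 1 for Peyer's patch against mesenteric HEC and 2 for Peyer's patch against peripheral capillary cells. Without peripheral capillary arrays 1 and 2, mesenteric against peripheral capillary cells gave 0, Peyer's patch against mesenteric capillary cells 1, and the interaction of Peyer's patches with mesenteric nodes 1. Without Peyer's patch HEC arrays 2 and 3, chosen after seeing the data, Peyer's patch against peripheral nodes gave 1 for HEC and 2 for capillary cells. The cause of these shifts was not tested, and some of these settings also had fewer arrays or genes. Shares of all genes called under these alternatives are not given here, so a shift in count need not be particular to the members.

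Whether replicate numbers pair the samples was not settled. Of 41 pairs of arrays with the same number in different groups, 17 deviated from their group means with a correlation above 0.1 (median 0.08). Of the other 112 pairs 37 did so (median -0.01). The highest correlations were 0.56 with the same number and 0.61 with different numbers. In groups of 2 arrays the deviations mirror each other. Mesenteric HEC arrays 1 and 3 correlated at 0.57, and a block by number does not join them. With the replicate number as a block, mesenteric against peripheral HEC gave 5 members and Peyer's patch against peripheral capillary cells 3; 113 of the 118 calls were unchanged. The other 5 were Lbr in peripheral nodes (-0.37, adjusted p = 0.0664), Srebf2 and Me1 in mesenteric nodes (0.29 and 0.63, adjusted p of 0.0909 and 0.0634), and Acaca and Elovl5 for Peyer's patch against peripheral HEC (0.46 and -0.42, adjusted p of 0.0794 and 0.0721). A filter on dim probes or another background correction was not run, since centred values hold no signal level.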

Other observations

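Genes that assemble glycerolipids and phospholipids were higher in HEC than in capillary cells for 13 of 25 and lower for 5 (median 0.31, mean of 3 tissues; 33.9% of all genes called). Lpcat4, which reacylates lysophospholipids, was higher by 2.34 (SE 0.13) in peripheral nodes, 2.56 (SE 0.14) in mesenteric nodes and 2.10 (SE 0.14) in Peyer's patches. Agpat5, an acyltransferase of phosphatidic acid synthesis, was higher by 1.70 (SE 0.16), 1.39 (SE 0.18) and 1.01 (SE 0.17). Over the mean of tissues Cept1, which makes phosphatidylcholine and phosphatidylethanolamine, was higher by 1.19 (SE 0.10) and the phosphatidate phosphatase Lpin1 by 0.97 (SE 0.08). Genes of fatty acid oxidation were higher for 13 of 20 and lower for 3 (median 0.39), led by Decr1 at 0.81 (SE 0.12), Cpt1a at 0.74 (SE 0.06), Etfdh at 0.74 (SE 0.13) and Etfb at 0.54 (SE 0.08).

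Of the 23 other fatty acid genes 0 were higher and 3 lower in Peyer's patch than in peripheral HEC (limma; 6.65% of all genes called). They were Elovl7 at -1.54 (SE 0.14), Fads3 at -1.28 (SE 0.14) and Acacb at -0.51 (SE 0.08), and were named after their values were seen.

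Among the 4 mesenteric HEC arrays, the closest pairs were of different gates. Over all genes the SD of the difference was 0.178 between arrays 1 and 3 and 0.193 between arrays 2 and 4. The other pairs across gates, 1 with 4 and 2 with 3, gave 0.277 and 0.242, and the pairs of the same gate, 1 with 2 and 3 with 4, gave 0.238 and 0.247. Over the 35 members the SDs were 0.117 and 0.152 for the closest pairs, 0.302 and 0.293 for the other pairs across gates, and 0.317 and 0.261 within gates. Ebp read -0.03 and -0.05 on arrays 1 and 3 and 0.54 and 0.32 on arrays 2 and 4, and Dhcr7 read -0.25 and -0.34, then 0.25 and 0.07. The labels do not say what these arrays share.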
